A study of Gasterosteus aculeatus with 79 samples.

Results

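The genes described here are the 100, of 22456 with a row in the files, that stood lowest relative to control in the diencephalon of male three-spined sticklebacks (Gasterosteus aculeatus) at late hatching while staying near control at every earlier stage of paternal care. Both the diencephalon and the telencephalon of 40 males in 8 groups of 5 were profiled by RNA sequencing. This gave 39 diencephalon and 40 telencephalon libraries, because 1 control male taken at 1 p.m. had a telencephalon library alone. Males of the nest group held a nest and had not mated, and males of the eggs group were taken 4 days after fertilization. These males and those at early hatching were taken at 9 a.m., males at mid hatching at 1 p.m. and males at late hatching at 5 p.m., with hatching on day 5. The 3 control groups, taken at each of those hours, were reproductively mature and had no nest. All males were adults caught in 1 freshwater population, Putah Creek, and kept singly in the laboratory, and each male gave its own libraries. Their age is not given in the sources used here.

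In this species the male alone builds the nest, fans and guards the eggs and tends the fry. The diencephalon of fishes holds the hypothalamus and much of the preoptic area, which govern hormone release, feeding, daily rhythm and reproductive behaviour. The telencephalon holds the pallium and subpallium, which take part in learning, motivation and social behaviour. Both regions belong to the network of brain areas that vertebrates share for social behaviour. Expression in the brain also moves with time of day, which is why each hatching group had control males taken at its own hour.

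The members were chosen on diencephalon values. CPM (counts scaled to the library's sum over genes) was put on the log2(CPM + 1) scale, and d was the mean of a stage minus the mean of the control group of the same hour. Of 14278 genes with a mean of 5 CPM or more in the diencephalon, 3308 kept an absolute d under 0.15 in the nest and eggs groups and at early and mid hatching. The 100 with the lowest d at late hatching became the members, and none of the 5 genes that the rule leaves out by name would have been among them. Every difference between diencephalon groups below therefore belongs to the choice and is a description without a test. The telencephalon libraries were not used by the choice, and their differences were tested. They came from the same males, so these tests are not independent of the choice. The comparison of both regions in control males uses diencephalon libraries that the choice used too and is described without being read as a test.

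At late hatching d ran from −0.86 to −0.32 in the diencephalon, with a median of −0.38, beside a median of 0.00463 over the 14278 genes. On the linear scale the median member stood at 0.766 of its 5 p.m. control, and the range was 0.551 to 0.803. A d below −0.5 was reached by 12 members and a d below −0.4 by 36. The last 3 genes inside the limit were ENSGACG00000000290, ENSGACG00000005781 and ENSGACG00000020582, at −0.319, −0.317 and −0.316. The first 3 outside were ENSGACG00000009771, ENSGACG00000003205 and ENSGACG00000013457, at −0.315, −0.314 and −0.313. There was no gap in the values at the limit.

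Mean CPM of the members in the diencephalon ran from 5.14 to 234, with a median of 19.0, beside a median of 31.1 over the 14278 genes. CPM is not scaled by gene length. The SD among the 5 late hatching males had a median of 0.188 on the log2 scale over the members, beside 0.172 over all 14278 genes, and among the 5 p.m. control males it was 0.183 beside 0.175. The males of a group were thus about as spread for the members as for other genes.

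**Figure D1:**
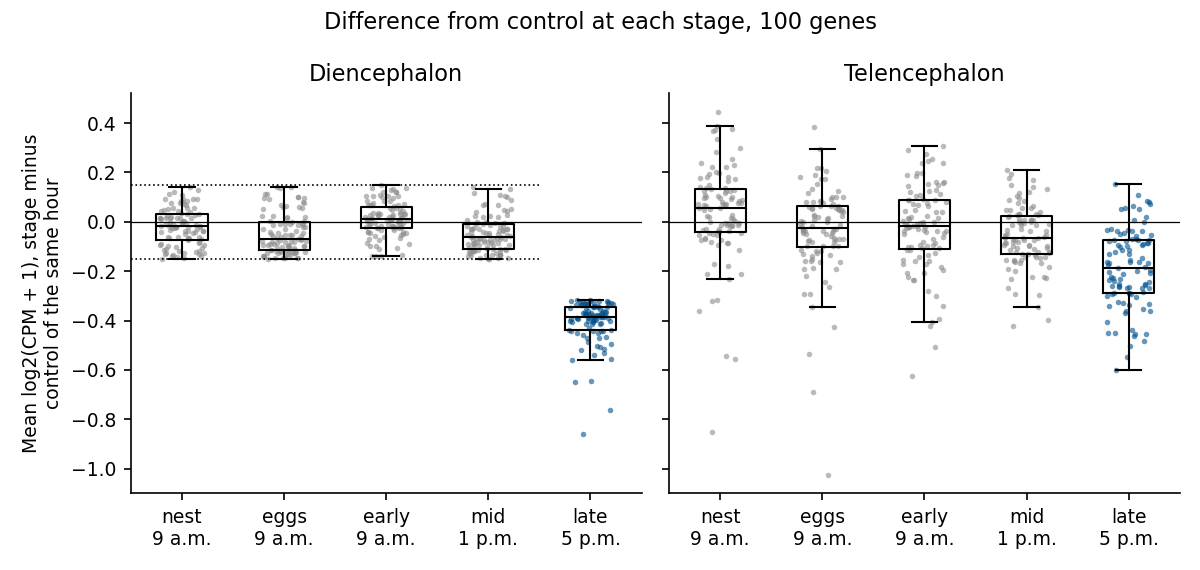
Difference from the control group of the same hour (mean log2(CPM + 1), y axis) at each stage (x axis) for the 100 genes, in diencephalon (left) and telencephalon (right). Each point is 1 gene, boxes give median and quartiles with whiskers to 1.5 times the box height, and dotted lines mark the limits of ±0.15 that the choice set. The diencephalon medians lie between −0.07 and 0.01 until late hatching (−0.38). In the telencephalon, which the choice did not use, the late hatching median is −0.19.

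For the differences, the name given to such a set, genes lower at late hatching and at no other stage, follows from the limit that the choice set. Within that limit d in the diencephalon was below 0 for 80 members at mid hatching and 74 at eggs, beside 47.7% and 55.6% of the 14278 genes. At nest and early hatching it was so for 60 and 42, beside 52.3% and 49.6%. The name was also checked against the levels of all 8 groups. In the diencephalon the 5 p.m. control group had the highest mean of the 8 groups for 89 of the 100 members, beside 27.1% of the 14278 genes. The late hatching group had the lowest mean for 62 members, beside 9.03% of genes. Both held for 51 members, the control alone was extreme for 38, and the late hatching group alone for 11. The choice fixed these counts in part, so they describe the place of the groups and are not tested. In the telencephalon the median d at late hatching of these 51, 38 and 11 members was −0.17, −0.22 and −0.11, with 49, 32 and 8 of them below 0.

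Set against the mean of the other 6 groups, the 5 p.m. control group stood 0.28 higher on the log2 scale at the median member and the late hatching group 0.14 lower (−0.14). The distance of the control group was the larger one for 77 members and that of the late hatching group for 23. For 5 members late hatching was not below the mean of the other 6 groups, and the highest of these stood 0.0725 above it. In these values the difference at late hatching was, for most members, made up more of a high 5 p.m. control level than of a low level in fathers. The choice used both 5 p.m. groups in this contrast alone and held the other stages near their own controls. The sizes of both distances therefore depend on the choice, and the split between them is described without a test. None of the other 6 groups was taken at 5 p.m., so these distances mix hour with care.

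**Figure D2:**
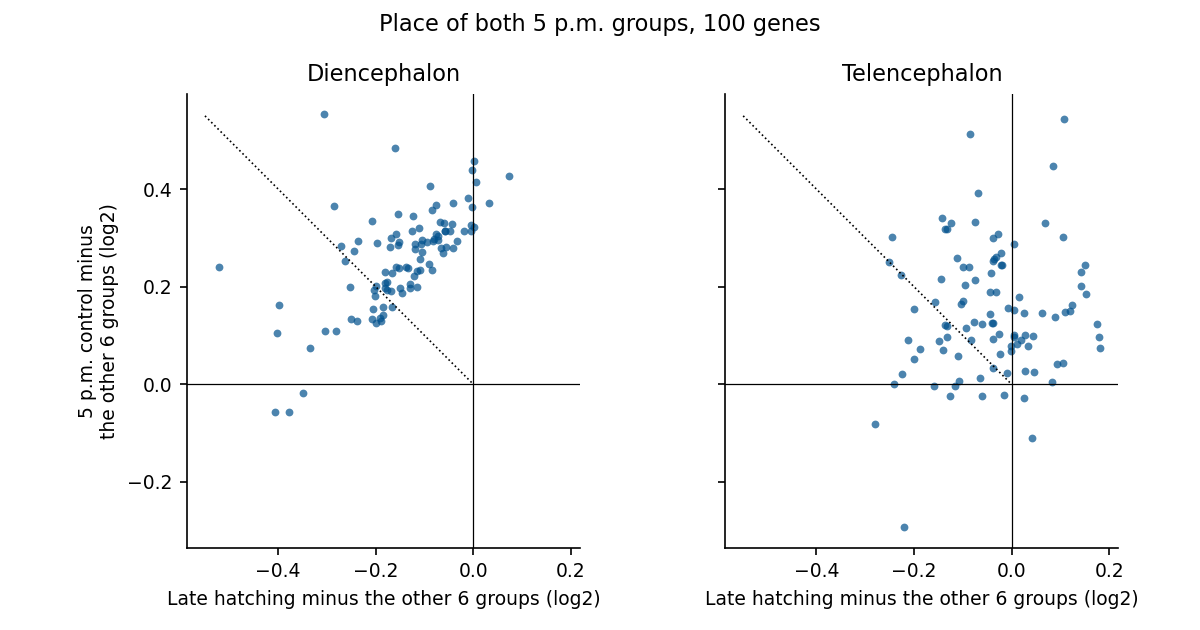
Mean log2(CPM + 1) of late hatching (x axis) and of the 5 p.m. control (y axis), each minus the mean of the other 6 groups, for the 100 genes in diencephalon (left) and telencephalon (right). Points above the dotted line have the control group further from the other groups than late hatching; in the diencephalon 77 of 100 genes have the larger distance in the control group, in the telencephalon 71.

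Along the day, the median level of the members was highest in control males of 5 p.m. and lowest in fathers of the same hour. Relative to the 9 a.m. control group the median member stood at 0.11 in 1 p.m. control males and at 0.28 in 5 p.m. control males, with 86 and 99 of the 100 members above the 9 a.m. level. In mid hatching males the median was 0.05 and in late hatching males −0.12, with 70 and 8 members above that level. Over all 14278 genes the corresponding medians were −0.01 and 0.02 in control males and −0.01 and 0.00430 in fathers. The fathers of mid and late hatching were different males, and the day of hatching and the hour moved together in them.

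A score for each library was taken as the median over the members of log2(CPM + 1) minus the mean of those 6 groups. In the diencephalon the 5 p.m. control males had scores of 0.199 (male 97), 0.214 (male 95), 0.309 (male 75), 0.331 (male 90) and 0.346 (male 66). The late hatching males had −0.257 (male 15), −0.219 (male 32), −0.106 (male 65), −0.0622 (male 47) and −0.0437 (male 10). The other 29 diencephalon libraries lay between −0.211 and 0.210. Late hatching males 15 and 32 lay below that range, and 4 of the 5 control males lay above it, with male 97 just under its top.

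**Figure D3:**
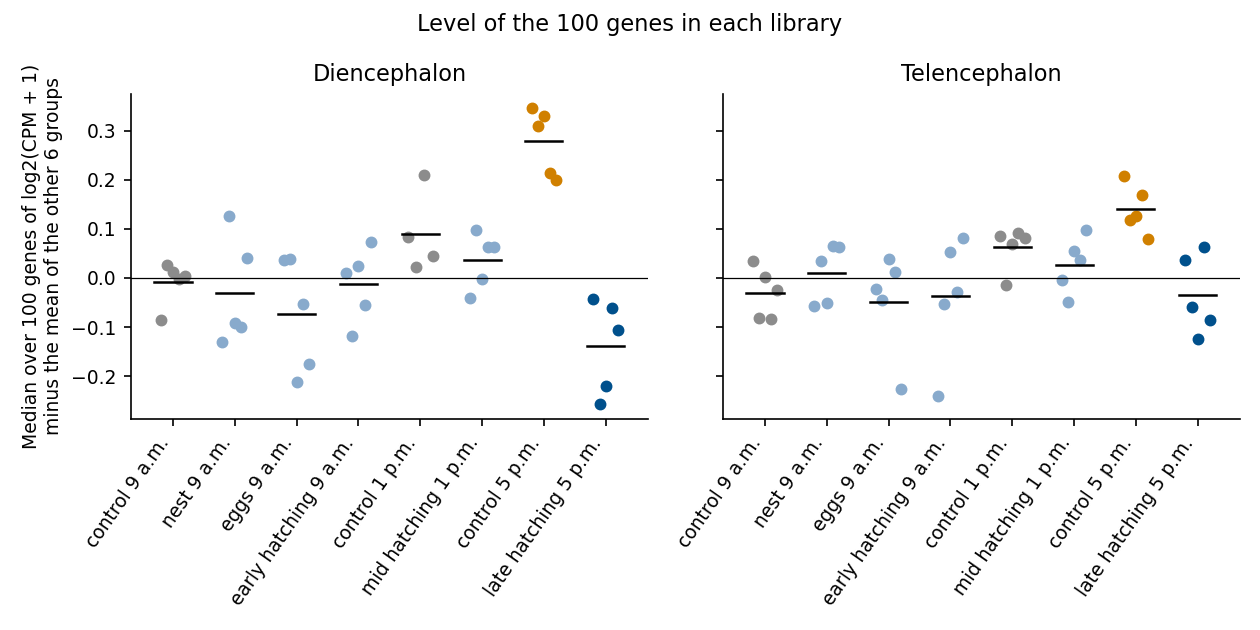
Score of each library, the median over the 100 genes of log2(CPM + 1) minus the mean of the other 6 groups (y axis), by group (x axis) in diencephalon (left) and telencephalon (right). Points are males and bars group means. In the diencephalon the 5 p.m. control males (0.199 to 0.346) and the late hatching males (−0.257 to −0.0437) do not overlap, and in the telencephalon the same groups run from 0.0785 to 0.209 and from −0.124 to 0.0629.

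All 5 late hatching males were below all 5 control males in the diencephalon for 33 members, beside 4.55% of the 14278 genes, and above them for 0, beside 6.04%. With edgeR's quasi-likelihood test 16 members were lower at an adjusted p under 0.01, beside 1.71% of 18609 genes, a comparison that the choice had used. That count fell to 0 with the share of reads assigned to no gene, called outside genes below, as covariate, beside 0% of genes lower. It was 0 when only both groups were fitted, beside 0.00565%, and DESeq2 gave 26, beside 3.54%. Leaving out 1 late hatching male gave 0 (male 32), 1 (male 15), 10 (male 65), 13 (male 10) and 14 (male 47). Leaving out 1 control male gave 1 (male 66), 1 (male 90), 2 (male 75), 3 (male 95) and 29 (male 97). The share of all genes called lower ran from 0.113% to 4.52% in these fits. At the other 4 stages, where the choice set the limit of 0.15, 0 members were called by edgeR or DESeq2 in the diencephalon and 0 reached an unadjusted p under 0.05 by edgeR. Of all 18609 genes, edgeR called 0.0537% at nest, 0.0322% at eggs and 0% at early and mid hatching. DESeq2 called 75, 50, 4 and 3 of these genes at the 4 stages in that order.

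A gene name was at hand for 5 members. The names come from tables of the study that hold 681 named genes, chosen by the study in part on these libraries, so the named members are no fair sample of the 100, and the other 95 are given by identifier only. The named genes follow in the order of membrane synthesis, extracellular matrix and signalling.

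The gene chka encodes choline kinase alpha, which carries out the first step in making phosphatidylcholine, the main phospholipid of cell membranes. In the diencephalon it had 29.9, 37.1, 37.1, 41.2 and 46.8 CPM in late hatching males and 40.4, 45.1, 65.0, 67.5 and 70.8 CPM in 5 p.m. control males, against 46.4 ± 6.86 CPM (SD, n = 5) in 9 a.m. control males. Late hatching males 15 and 47 reached into the range of control males 90 and 75, and d was −0.55. Means in the other groups lay between 43.8 and 51.3 CPM. In the telencephalon the same males had 34.6, 36.5, 40.6, 41.7 and 54.2 CPM at late hatching and 48.1, 50.4, 64.0, 65.6 and 66.9 CPM in control. Again male 15 was the highest father and males 90 and 75 were the lowest controls. The fitted log2 fold change in the telencephalon was −0.50 ± 0.17 (SE), with an adjusted p of 0.219 by edgeR's quasi-likelihood test over 18397 genes and an unadjusted p of 0.00612.

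The gene tnr encodes tenascin-R, a glycoprotein of the extracellular matrix of the brain that is found in the nets around neurons and at nodes of myelinated fibres. In the diencephalon late hatching males had 23.1, 28.0, 33.3, 34.0 and 35.4 CPM and control males 33.6, 40.3, 41.2, 47.8 and 51.7 CPM, with d at −0.47. Control male 97 fell among the fathers. Control males of 9 a.m. had 33.6 ± 3.78 CPM (SD, n = 5) and those of 1 p.m. 36.6 ± 6.47 CPM (SD, n = 4). In the telencephalon, late hatching males had 39.7, 48.5, 50.2, 52.0 and 62.5 CPM and control males 62.2, 65.8, 67.3, 73.2 and 76.3 CPM, so that only late hatching male 10 passed the lowest control male. The fitted change of tnr there was −0.43 ± 0.17 (SE), with an adjusted p of 0.261 by edgeR and an unadjusted p of 0.0162.

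The gene gpc1b encodes a glypican, a heparan sulfate proteoglycan held at the cell surface that binds growth factors. Its diencephalon values were tight in late hatching males, at 61.9, 62.0, 63.8, 64.3 and 65.3 CPM, and wider in control males, at 71.8, 76.0, 76.6, 82.6 and 93.6 CPM. These groups did not overlap, and d was −0.33. The means of the other 6 groups lay between 68.8 and 74.6 CPM, between both. In the telencephalon gpc1b had 125, 135, 144, 145 and 147 CPM in late hatching males and 144, 144, 145, 146 and 151 CPM in control males, with overlap and a fitted change of −0.05 ± 0.07 (SE, adjusted p = 0.771 by edgeR). At nest the telencephalon held 154 ± 7.10 CPM of gpc1b (SD, n = 5), beside 126 ± 13.4 CPM (SD, n = 5) in 9 a.m. control males. DESeq2 called that difference, at 0.32 ± 0.07 (SE, log2) with an adjusted p of 0.00701, and edgeR gave an adjusted p of 0.0549.

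The gene fam65a, also known as RIPOR1, encodes a protein that binds the GTPase RhoA. It had 10.8, 11.7, 11.7, 12.3 and 15.4 CPM in late hatching males and 13.4, 13.5, 17.98, 18.8 and 20.6 CPM in control males in the diencephalon, with d at −0.41 and overlap at late hatching male 10. In the telencephalon the fitted change of fam65a was −0.17 ± 0.20 (SE, adjusted p = 0.712 by edgeR), with late hatching males at 9.50 to 13.2 CPM and control males at 9.59 to 15.1 CPM.

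The gene dvl2 encodes dishevelled, which passes the Wnt signal from its receptors to the inside of the cell. Late hatching males had 6.59, 6.93, 7.74, 7.87 and 8.33 CPM and control males 7.997, 8.99, 10.2, 10.3 and 11.5 CPM in the diencephalon, with d at −0.34 and overlap at control male 95. In the telencephalon late hatching males had 6.54 to 9.47 CPM and control males 7.84 to 11.7 CPM, and the fitted change of dvl2 was −0.15 ± 0.15 (SE, adjusted p = 0.667 by edgeR).

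The lowest d of all members belonged to ENSGACG00000011414, which has no name in the tables used and was singled out after its values were seen. In the diencephalon it had 25.8, 27.0, 34.0, 35.9 and 45.2 CPM in late hatching males and 47.2, 54.1, 55.8, 65.5 and 86.7 CPM in 5 p.m. control males, without overlap, and d was −0.86. The telencephalon held 31.3, 34.9, 38.2, 43.5 and 48.5 CPM at late hatching and 31.9, 49.4, 53.8, 56.8 and 57.9 CPM in control. Without control male 97, the lowest, the groups would not have overlapped there. The fitted change of ENSGACG00000011414 in the telencephalon was −0.33 ± 0.20 (SE, adjusted p = 0.445 by edgeR). The second lowest, ENSGACG00000000882, with a d of −0.76, was a low gene with a mean of 6.20 CPM in the diencephalon, and in the telencephalon its fitted change was −0.07 ± 0.27 (SE, adjusted p = 0.932 by edgeR).

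**Figure D4:**
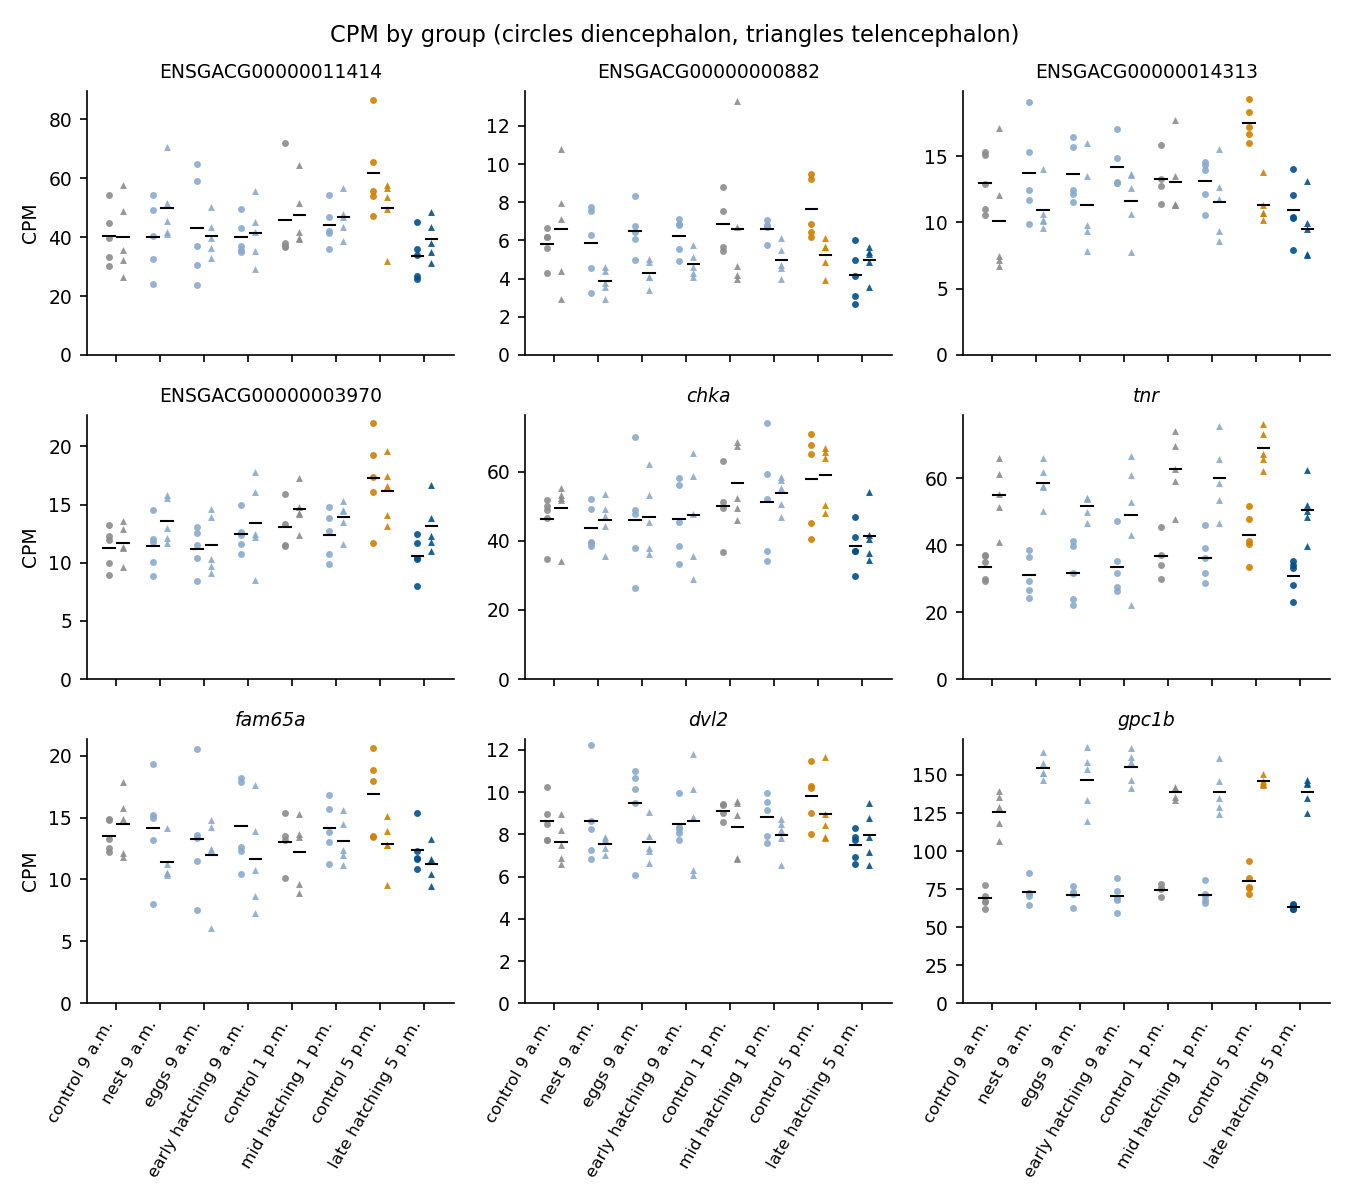
CPM (y axis, from 0) by group (x axis) of the 4 members with the lowest d and the 5 with a name; circles are diencephalon libraries, triangles telencephalon libraries and bars group means. In the diencephalon the 5 p.m. control group has the highest mean for every gene shown, and the late hatching group the lowest, and gpc1b and tnr lie higher in the telencephalon.

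The telencephalon libraries asked whether the same genes were lower at late hatching in a region that the choice had not used. They came from the same males, and the libraries of a male deviated together. The correlation of their deviations from group means over 14278 genes averaged 0.51 for the same male, and 38 of 39 males matched best with themselves. The average of −0.13 for other males of the group follows largely from the use of group means, since deviations within a group sum to 0. Values that were high or low in a male's diencephalon therefore tended to be so in its telencephalon, and the tests there are not independent of the choice. Of the 100 members 0 passed an adjusted p under 0.01 by edgeR, beside 0% of 18397 genes, and DESeq2 called 11 genes and 0 members. The smallest adjusted p of a member was 0.127.

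At an unadjusted p under 0.05 by edgeR, 25 members were lower and 0 higher, beside 7.16% of the 18397 genes lower and 6.85% higher. Among the 3306 tested genes that were flat at the earlier stages in the diencephalon, 5.57% were lower at that p. The fitted change was below 0 for 86 members, beside 43.4% of genes, and the median d of the members was −0.19, beside 0.00757 over the 14278 genes. All 5 late hatching males were below all 5 control males for 10 members, beside 5.01% of genes, and above them for 0, beside 2.04%. With the outside-gene share as covariate 18 members were lower and 1 higher at that p, beside 6.69% and 8.89% of genes. Leaving out 1 male in turn gave 18 to 30 members lower and 0 higher, beside 5.33% to 8.80% of genes lower and 3.94% to 7.05% higher. For 9 members d was lower in the telencephalon than in the diencephalon. Whether the change differed between regions was not tested, because the choice fixed the diencephalon values.

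The 5 members with the lowest p in the telencephalon were all known by identifier only. ENSGACG00000011515 had 25.1, 32.1, 32.2, 33.1 and 35.8 CPM in late hatching males and 39.9, 40.3, 44.0, 44.4 and 48.7 CPM in control males, a fitted log2 fold change of −0.44 ± 0.11 (SE, adjusted p = 0.127 by edgeR). ENSGACG00000010384 had 14.2, 14.8, 14.9, 16.5 and 18.8 CPM in late hatching males and 20.8, 21.8, 22.02, 22.6 and 25.1 CPM in control males, a change of −0.49 ± 0.13 (SE, adjusted p = 0.139 by edgeR). In neither gene did the groups overlap. The highest late hatching value belonged to male 10 in the first gene and to male 47 in the second.

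ENSGACG00000014859 was also without overlap in the telencephalon, with 21.7 to 26.9 CPM in late hatching males and 30.3 to 38.0 CPM in control males, a change of −0.45 ± 0.12 (SE, adjusted p = 0.159 by edgeR). ENSGACG00000009245 changed little but evenly, from 31.4 to 37.0 CPM in control males to 26.8 to 30.3 CPM in late hatching males, or −0.26 ± 0.08 (SE, adjusted p = 0.162 by edgeR). ENSGACG00000010618 overlapped at its ends, with 32.0 to 47.2 CPM at late hatching and 44.5 to 58.8 CPM in control, a change of −0.40 ± 0.12 (SE, adjusted p = 0.175 by edgeR). None of these passed the threshold.

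The place of the groups was also described in the telencephalon. These libraries came from the same males whose diencephalon values entered the choice, so this is no independent sighting. Against the mean of the other 6 groups the 5 p.m. control group stood 0.13 higher at the median member and the late hatching group at −0.04, and the control had the larger distance for 71 members. The 5 p.m. control group had the highest mean of the 8 for 51 members, beside 21% of the 14278 genes, and the late hatching group the lowest for 22, beside 7.73%. In the telencephalon, scores of the 5 p.m. control males were 0.0785, 0.118, 0.127, 0.169 and 0.209, and those of late hatching males −0.124, −0.0848, −0.0589, 0.0362 and 0.0629. The other 30 libraries ran from −0.240 to 0.0975, so that all 5 late hatching males lay inside that range and 4 of the 5 control males above it.

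The earlier stages were not limited by the choice in the telencephalon. There the median d of the members was 0.06 at nest, −0.02 at eggs and early hatching alike and −0.06 at mid hatching. At nest, eggs, early and mid hatching d was below 0 for 41, 55, 58 and 67 members. The shares of the 14278 genes were 53.8%, 51.8%, 52.0% and 47.7%. Of the 100 members 35 kept an absolute d under 0.15 at all 4 of these stages, beside 30.5% of those genes. Single members reached −0.85 at nest and −1.03 at eggs. No member passed an adjusted p under 0.01 by edgeR at any of these 4 stages. The shares of genes were 0.0109% at nest, 0.00544% at eggs and 0% at early and mid hatching. DESeq2 called 1 member at nest, gpc1b as described above, beside 0.413% of genes. It called 0 members at eggs, early and mid hatching, beside 35, 35 and 15 of 18397 genes. At an unadjusted p under 0.05 by edgeR, 2 members were lower and 8 higher at nest, beside 7.82% and 6.62% of genes. At eggs these counts were 5 and 2, beside 5.64% and 5.76%, at early hatching 2 and 3, beside 5.54% and 5.56%, and at mid hatching 2 and 0, beside 3.14% and 2.43%. The first 3 of these comparisons share 1 control group.

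Control males of 5 p.m. against those of 9 a.m. in the telencephalon compare the hours of day without care. The diencephalon values of these same males entered the choice, which favoured genes high in the 5 p.m. control males. The libraries of a male deviated together, so the values below are not independent of the choice. No member was called by edgeR at an adjusted p under 0.01, beside 0.00544% of genes, and DESeq2 called 0 members, beside 21 of the 18397 genes. At an unadjusted p under 0.05 by edgeR 15 members were higher at 5 p.m. and 0 lower, beside 3.42% of the 18397 genes higher and 7.45% lower. The fitted change was above 0 for 86 members, beside 45.6% of genes, with a median of 0.15. With the outside-gene share as covariate 5 members were higher and 2 lower at that p, beside 3.72% and 8.50% of genes, and the median was 0.09. Leaving out 1 male in turn gave 13 to 24 members higher and 0 to 2 lower at that p. The shares of genes were 2.66% to 5.63% higher and 4.18% to 8.18% lower. The count of 24 came without the 9 a.m. control male 69. A pituitary score, the mean log2(CPM + 1) of 7 markers, was 4.57 ± 4.76 (SD, n = 5) at 9 a.m. At 5 p.m. it was 0.55 ± 0.53 (SD, n = 5). The same score of 25 photoreceptor markers was 1.60 ± 1.86 and 0.42 ± 0.34 (SD, n = 5 each). With both scores as covariates 14 members were higher and 0 lower at that p, beside 2.74% and 2.85% of genes. The median was then 0.19. This comparison and that of late hatching share the 5 p.m. control males, so their values are given side by side and no more.

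The share of aligned reads outside genes, those that the counting assigned to no gene, had a higher mean at late hatching than in 5 p.m. control males. Whether such reads lay between genes, in introns or on the other strand cannot be told from the counts. In the diencephalon it was 49.4 ± 1.46% (SD, n = 5) at late hatching and 44.5 ± 0.99% (n = 5) in 5 p.m. control males, without overlap, a difference of 4.87 percentage points with an adjusted p of 0.0159 by a two-sided exact permutation test. In the telencephalon it was 46.7 ± 1.58% (n = 5) and 45.0 ± 1.19% (n = 5), a difference of 1.68 points with an adjusted p of 0.135 by the same exact permutation test. The 5 p.m. control group had the lowest mean share of the 8 in both regions. Late hatching did not have the highest. In the diencephalon the mean was 49.8% at nest and 49.7% at eggs, and in the telencephalon 47.2% in 9 a.m. control males. With this share as a covariate the members had a median fitted change at late hatching of −0.32 in the diencephalon and −0.15 in the telencephalon. In the diencephalon the share did not overlap between both groups, so this fit cannot separate the share from the group difference there. The part of the share in the differences was not tested.

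Libraries of all control males and of late hatching male 65 carry a label of multiple lanes, and those of the other fathers a label of a single lane, so lane and care cannot be told apart in any other father. Its score was −0.106 in the diencephalon and −0.0848 in the telencephalon, among the fathers in both. Without male 65 the members lower in the telencephalon at an unadjusted p under 0.05 by edgeR numbered 23, beside 7.87% of genes.

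No member was on any of the 21 lists of pathways and cell types that matched named genes, so the lists describe the surroundings alone. Of 5 markers of oligodendrocytes, which make myelin, 5 in the diencephalon and 4 in the telencephalon had lower means at late hatching than in 5 p.m. control males. None passed an adjusted p under 0.01 by edgeR. Of all genes at 5 CPM or more in the diencephalon, 49.3% and 48.6% had a d below 0 in these regions. The study chose the named genes in part on these libraries. The shared direction of the markers is therefore not independent of that choice and is a description only. The median fitted change of these 5 markers was −0.36 in the diencephalon and −0.22 in the telencephalon, beside −0.42 and −0.17 for the members. Other cell type lists had medians, in the same order, of −2.29 and 0.06 (photoreceptors) and −0.86 and 2.24 (pituitary). They were 0.11 and 0.95 for microglia, and 0.29 and 0.91 for muscle. The lists of radial glia and astroglia and of the epithalamus each held 1 gene. Neither gene passed 1.34 CPM in a male of the 5 p.m. groups. Their fitted changes were −1.22 and −0.51 (radial glia and astroglia) and −1.44 and 0.24 (epithalamus). The myelin-associated glycoprotein gene mag had 90.9 ± 15.2 against 141 ± 20.1 CPM in the diencephalon and 95.8 ± 10.6 against 109 ± 13.7 CPM in the telencephalon (SD, n = 5 each). The marker mbpb was not lower in the telencephalon, at 184 ± 42.0 against 182 ± 56.5 CPM (SD, n = 5 each). The summed level of the 5 markers was 537 to 723 CPM in late hatching males and 603 to 1069 CPM in control males in the diencephalon. The 5 markers of microglia summed to 274 to 543 CPM and 93.5 to 676 CPM there. The 7 pituitary markers ran from 4.55 to 2191 CPM and from 3.39 to 4877 CPM, and the 25 photoreceptor markers from 11.6 to 45.0 CPM and from 16.7 to 141 CPM, so that the ranges of both groups overlapped. Of 8 muscle markers 1 was called, MYH3, a myosin heavy chain, as higher at late hatching, with sums of 15.1 to 31.2 CPM and 12.8 to 19.8 CPM. No marker list was at 0 throughout. With pituitary and photoreceptor scores as covariates, 27 members were lower in the telencephalon at an unadjusted p under 0.05 by edgeR, beside 6.96% of genes. In tissue of many cells, fewer cells of a type and less RNA per cell cannot be told apart. Markers of neurons, endothelium and erythrocytes had no match among the named genes and are not analysed here, nor were the markers that define the hypothalamus or the pallium, so the labelled regions were not checked by markers. The part of cell makeup in the differences was not tested.

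Where the members are expressed was compared between the regions in the 9 a.m. control males. The members had to reach 5 CPM in the diencephalon and not in the telencephalon, and the choice used these diencephalon libraries, so the counts describe the members only. In edgeR's fit on all libraries 14 members were past an adjusted p of 0.01 as higher in the diencephalon, beside 10.1% of 18958 genes and 11.5% of the 14278 genes at 5 CPM or more. As lower, 16 were past it, beside 10.9% and 12.4%. With the male as a block, since both regions came from the same males, 39 members were past the threshold and 61 were not, beside 28.5% of genes. In these males pituitary scores ran from 1.61 to 7.75 in the diencephalon and from 0.79 to 10.6 in the telencephalon. Photoreceptor scores ran from 0.45 to 2.44 and from 0.25 to 4.39. Their part in the comparison of regions was not tested.

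The gene gpc1b had 68.8 ± 5.83 CPM (SD, n = 5) in the diencephalon and 126 ± 13.4 CPM (n = 5) in the telencephalon of 9 a.m. control males, a fitted log2 difference of −0.88 ± 0.08 (SE). For tnr these values were 33.6 ± 3.78 and 54.96 ± 9.59 CPM (n = 5 each) and −0.73 ± 0.18 (SE). The genes chka, fam65a and dvl2 had fitted differences of −0.10 ± 0.20, −0.11 ± 0.20 and 0.16 ± 0.14 (SE).

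At the ends of the range, singled out after their values were seen, ENSGACG00000009736 had 139 ± 8.99 CPM in the diencephalon and 31.5 ± 19.96 CPM in the telencephalon (SD, n = 5 each), a difference of 2.12 ± 0.46 (SE). Its telencephalon values ran from 15.3 to 64.0 CPM between males. ENSGACG00000020582 was the lowest in the diencephalon relative to the telencephalon, at 31.5 ± 3.64 against 82.7 ± 27.4 CPM, a difference of −1.41 ± 0.17 (SE), and its fitted change at late hatching in the telencephalon was 0.17 ± 0.18 (SE, adjusted p = 0.698 by edgeR).

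**Figure D5:**
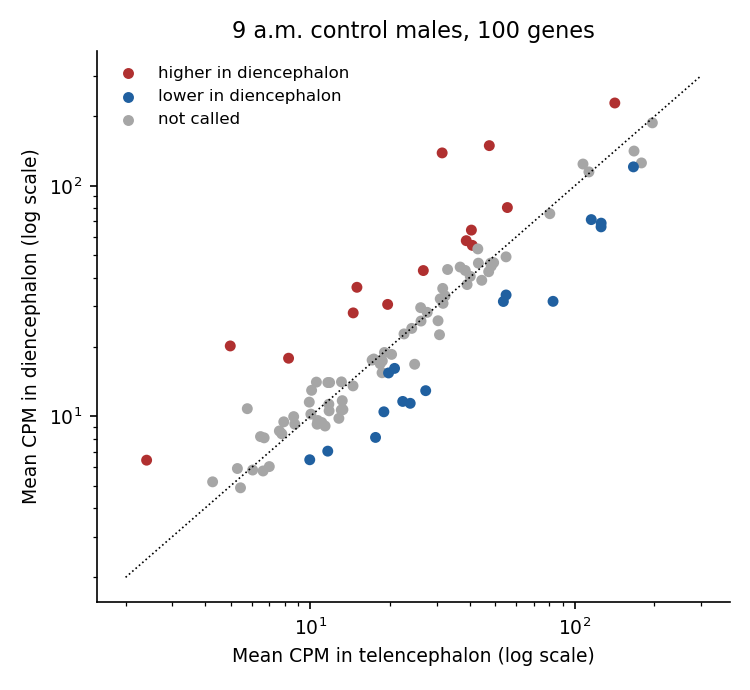
Mean CPM of the 100 genes in the telencephalon (x axis, log scale) and the diencephalon (y axis, log scale) of 9 a.m. control males, with the line of equality. Red points are the 14 genes called higher in the diencephalon, blue points the 16 called lower and grey points those not called, and most of the points lie near the line.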

How the data were processed

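The authors took reads through CASAVA 1.8.2, aligned them with TopHat2 2.0.8 and counted them on genes with HTSeq 0.6.1. The deposited values were whole-number counts per gene, not normalized. With them came 5 summary rows per file, for reads assigned to no gene and the like, which stayed out of library sizes and tests. Reads falling in more than 1 gene were excluded by the authors, at most 0.0285% of the reads that aligned once. The kit marks strand. The authors report default settings except where noted and name no strand setting for the counting. Overlapping and antisense genes are thus uncertain, as are near-identical copies. The sum over genes was 16025932 to 37371744 counts in diencephalon libraries and 15839679 to 29785260 in telencephalon libraries. The authors aligned to the repeat masked genome and counted on the annotation of Ensembl release 75.

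The members, gene lists and tests were chosen with earlier results of these data known. Counts were fitted per region with edgeR 4.0.16 (R 4.3.3) on genes that reached 0.5 CPM in 5 or more libraries, with TMM scaling, 8 groups and quasi-likelihood tests, Benjamini-Hochberg adjustment over all genes tested and a threshold of 0.01. Scripts were tested on simulated data. Alternatives were RLE scaling, no filter, DESeq2 1.42.0, an adjusted p under 0.05, covariates, fits of the groups compared alone and leaving out each male; the last for the earlier stages, the hour and the read share was chosen after seeing the data. Libraries were paired by the male number in the labels, with a mean correlation of deviations of 0.51, which for 1 or more males fell as low as 0.03. The p-values of the fits set a difference of groups against the spread between libraries within groups, moderated across genes. The main fit of both regions treated the libraries of a male as separate. The genes described are the members with a name (5 of the 15 the rule allowed), the 5 with the lowest p in the telencephalon, the genes at both sides of the limit and those said to be singled out later. Names come from the study's tables; sequences were not used here. Figures used matplotlib 3.10.9 and numpy 2.4.6, pandas 2.3.3 and scipy 1.17.1 on Python 3.11.15.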

Additional observations from a re-analysis of the deposited data

Results flagged for a closer look

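A total of 4 values lay far from the others of their group, by the gap to the nearest value as a share of the group's range, among 88 groups of values looked at; chance gives such a value in about 1 in 20 groups. For control male 12, taken at 1 p.m., 48.0% of the diencephalon reads fell outside genes. The score over the members was −0.0850 in the diencephalon of control male 7 (9 a.m.) and −0.0149 in the telencephalon of control male 72 (1 p.m.), each below the rest of its group. ENSGACG00000010384 had 19.8 CPM in the diencephalon of control male 97, taken at 5 p.m., below the other 4 control males and above all 5 late hatching males.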

How the results depend on the processing

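In the diencephalon the count of members called at late hatching (16) was 59 at an adjusted p under 0.05 (7.79% of genes lower, beside 1.71%), 26 with DESeq2 (3.54%), 0 with the outside-gene share as covariate and 0 with only both groups fitted, and leaving out 1 male gave 0 to 29. Of the 100 members the rule chose 21 again with an absolute d under 0.10 and 39 under 0.20, which admit fewer or more genes, and 78 to 86 when 1 diencephalon library was left out. DESeq2 called 1 member at nest in the telencephalon (0 by edgeR). In the telencephalon the fitted change of ENSGACG00000000882 turned to 0.094 with that covariate and to 0.012 without late hatching male 10, and that of ENSGACG00000014313 to 0.063 with it; none of these passed a threshold, and the cause was not tested. With the male as a replicate block, 39 members differed between the regions instead of 30, beside 28.5% and 21.0% of genes. The block changed no other result, being fitted to this comparison alone. Leaving out 1 male gave 26 to 28 members, beside 17.2% to 19.1% of genes. The median d of the members stayed between −0.41 and −0.35 in the diencephalon and between −0.21 and −0.16 in the telencephalon when 1 male was left out. The difference in the share of reads outside genes stayed between 4.40 and 5.39 points in the diencephalon and between 1.27 and 2.09 points in the telencephalon. Depth limits most the members with low levels, whose means went down to 5.14 CPM.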
